A study of Ovis aries with 24 samples.

Results

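Endothelial and lymphatic vessel genes were followed across muscles of lambs with and without the callipyge mutation. The set was CDH5, TIE1, VWF, VEGFA and LYVE1, and each gene was read through all probe sets of a bovine Affymetrix GeneChip annotated to exactly that symbol. The array names 9156 genes, and these 5 accounted for 9 of its 24128 probe sets and for 8 of the 15654 that were bright enough to be tested. VEGFA, CDH5 and LYVE1 each had 2 tested probe sets, called here the brighter and the dimmer one, and TIE1 and VWF had 1 each.

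The samples came from lambs of a Dorset, Suffolk and Rambouillet cross, and those of LD are described as males. At the callipyge locus CN is the paternal heterozygote, which develops the muscle enlargement, CC the homozygote, NC the maternal heterozygote and NN the wild type. Supraspinatus (SS, a shoulder muscle) was sampled from CN and NN lambs, while semitendinosus (ST) and a further muscle, code SM, came from NN lambs, all at 11 to 12 weeks of age (T12). Longissimus dorsi (LD, a back muscle) was sampled from CN, CC, NC and NN lambs at T12 and within 5 days of birth (T0). The labels name SM in conflicting ways, so its code is kept. At T0 exact age and genotype cannot be told apart. Each of the 12 groups had 2 arrays that the labels describe as technical replicates. The protocol describes 8 lambs, 4 for each of 2 genotypes, so the number of animals behind an array is not known. The p-values below therefore measure the spread between group values. The design asked which transcripts go with muscle enlargement and which go with the change of fibre type.

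Blood vessels of muscle are lined by endothelial cells. CDH5 (VE-cadherin) joins neighbouring endothelial cells, TIE1 is a receptor tyrosine kinase of the angiopoietin system on their surface, and VWF is the clotting glycoprotein that they store and release. VEGFA is the secreted growth factor that drives capillary growth. It is made largely by the muscle fibres themselves and acts through receptors on the endothelium. LYVE1 is a hyaluronan receptor of lymphatic endothelium that is also found on some tissue macrophages.

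Median signal was 47.4 to 59.7 per array. The arrays of any one group had a Pearson's r of 0.974 to 0.988 over 4369 bright probe sets. Skeletal muscle identity was plain on every array: the summed signal of the muscle list, which includes the actin ACTA1 and the creatine kinase CKM, was 104617.7 to 182925.8. Signals are MAS5 values on a linear scale, group values are means of log2 signal over both arrays (printed back on the linear scale), and differences are log2 differences with the standard error of a limma fit. A difference was called when its adjusted p (Benjamini-Hochberg over all tested probe sets) was under 0.05. In whole muscle, fewer cells of a type and less RNA per cell cannot be told apart.

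VEGFA was lower in LD of CN lambs at T12 than in LD of the other genotypes, and no such difference was called at T0. The brighter VEGFA probe set read 2336.5 and 2264.5 in LD of CN lambs at T12. It read 4450.7 and 4653.1 in CC, 4602.7 and 4229.9 in NC, and 4224.0 and 4707.4 in NN. The CN arrays lay far below all 6 others, which overlapped among themselves. The log2 difference was -0.96 ± 0.13 (SE, limma, 95% interval -1.24 to -0.68, adjusted p = 0.0303), or 0.514 times the level of the other genotypes, whose group values had an SD of 0.02 on the log2 scale. The CN group value was below those of the other genotypes for 33.6% of all tested probe sets. Shares of this kind, here and below, count group values. The stricter separation of single arrays was not counted over all probe sets. Among all tested probe sets 28 were called in this comparison, or 0.179%. Of the 8 tested probe sets of these genes 2 were among them, brighter VEGFA and dimmer LYVE1. These genes were chosen with earlier results of these data known, so shares of the 8 do not show that vessel genes stand out. An unadjusted p under 0.05 was found for 4 of the 8, all lower in CN, against 9.98% of all tested probe sets. The adjusted p was above 0.05 in the fits without LD CC T0 replicate 1 (0.0584), without LD NN T0 replicate 1 (0.0504), without LD CC T12 replicate 1 (0.0559) and without LD NC T12 replicate 2 (0.0618), and it was 0.262 with NN as the only comparator. The difference stayed between -0.99 and -0.93 in all fits that left out 1 array.

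The dimmer VEGFA probe set ran the same way in LD at T12. It read 173.1 and 127.9 in CN, against 264.9 and 224.2 in CC, 242.8 and 203.3 in NC, and 294.5 and 253.7 in NN. Both CN arrays were below all 6 others, an order of group values that 33.6% of all tested probe sets showed. The difference was -0.72 ± 0.25 (limma adjusted p = 0.33) and was not called.

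At T0 the brighter VEGFA probe set read 3670.2 and 3940.1 in LD of CN lambs. It read 3783.5 and 4323.0 in CC, 3992.6 and 4079.5 in NC, and 4160.0 and 4649.4 in NN. The CN arrays overlapped with CC, and the difference of -0.13 ± 0.13 had a 95% interval of -0.41 to 0.15 (limma adjusted p = 0.798). The test of the CN difference at T12 minus that at T0 gave -0.83 ± 0.18 (unadjusted p = 7.69e-04, limma adjusted p = 0.236). None of the tested probe sets (0%) passed that test after adjustment, and 8.89% had an unadjusted p under 0.05. The T12 and T0 differences for VEGFA are therefore given side by side and were not shown to differ.

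In SS at T12 the brighter VEGFA probe set read 2066.9 and 2355.4 in CN lambs, against 2815.7 and 2806.4 in NN lambs. The groups did not overlap, and the difference was -0.35 ± 0.16 (unadjusted p = 0.0471, limma adjusted p = 1.0). No probe set (0%) was called in SS, and 4.19% had an unadjusted p under 0.05. The CN group value was below that of NN in SS for 50.1% of all tested probe sets. The dimmer VEGFA probe set read 136.9 and 170.2 in SS of CN lambs, against 147.4 and 135.4 in SS of NN lambs, so there the groups overlapped.

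**Figure D1:**
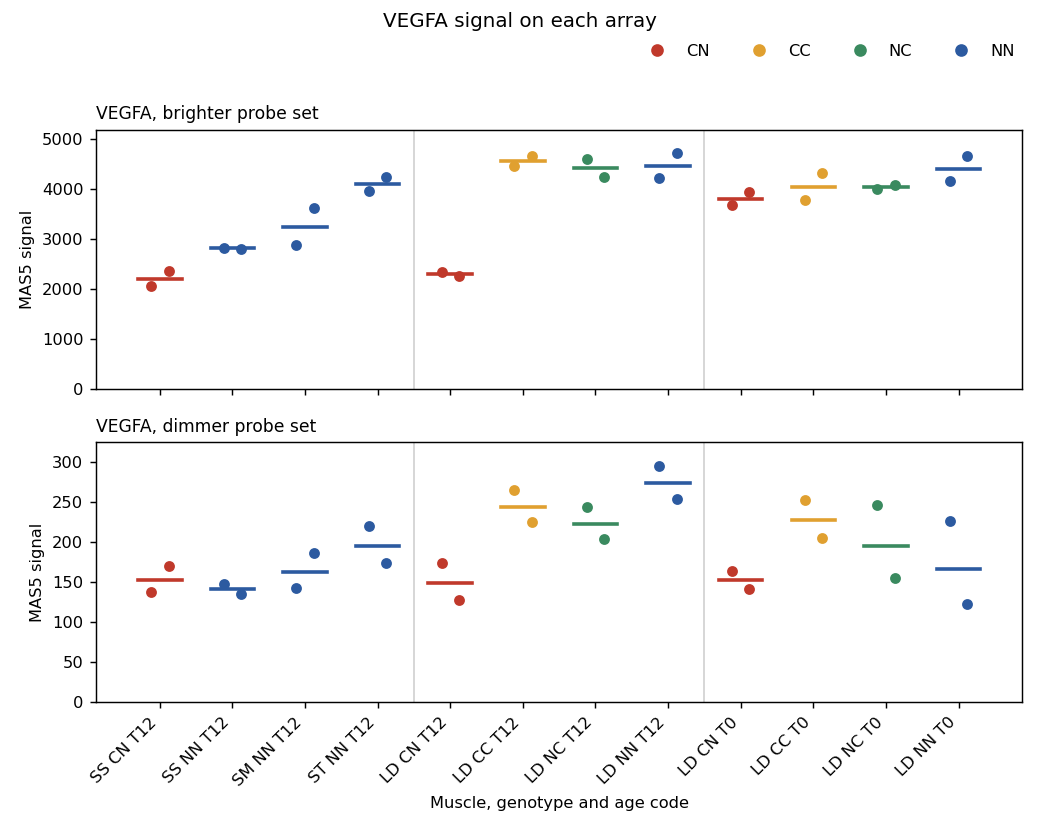
VEGFA signal (MAS5, linear axis from 0) on each array for the brighter probe set (top) and the dimmer one (bottom). Points are arrays, short lines group values, colours genotypes, and thin vertical lines part T12 SS, SM and ST from T12 LD and T0 LD. For the brighter probe set LD of CN lambs at T12 sits at 2300.2, beside SS of CN lambs at 2206.4, while every array of LD at T0, and of LD of the other genotypes at T12, lies at 3670.2 or above.

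VEGFA was also lower in SS of NN lambs than in LD of CC, NC and NN lambs as 1 pool, a comparison in which CC and NC carry the mutation. In NN lambs at T12 the brighter probe set read 2815.7 and 2806.4 in SS, 2882.4 and 3625.4 in SM, and 3952.6 and 4239.2 in ST. All 6 arrays of LD of CC, NC and NN lambs at T12 were above the SS arrays and above the SM arrays. SS of NN lambs had 0.628 times the level of LD of those genotypes, a log2 difference of -0.67 ± 0.13 (limma adjusted p = 0.0184). In that comparison 2.96% of tested probe sets were called, and this was the only call among the 8. With LD of NN lambs alone as comparator, which leaves NN muscles only, the adjusted p was 0.125 and no call was made. The dimmer probe set gave -0.80 ± 0.25 (limma adjusted p = 0.135). SM and ST together differed from LD by -0.30 ± 0.10 (limma adjusted p = 0.529), and SS from SM and ST by -0.37 ± 0.14 (limma adjusted p = 0.3). Calls were made for 0.0447% of probe sets in the comparison of SM and ST with LD, and for 0.997% in that of SS with SM and ST, and none of the 8 was called in either.

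Over the 12 groups the brighter VEGFA probe set spanned a 2.06-fold range. It was highest in LD of CC lambs at T12, followed by NN and NC at T12, NN at T0, ST, CC and NC at T0, CN at T0, SM, SS of NN, LD of CN at T12 and SS of CN. Arrays of neighbouring groups in that order overlapped in all but 4 of 11 pairs. The 4 gaps lay on either side of LD of CN at T0 and on either side of SS of NN, so the upper 7 groups form a run of overlapping levels. The lowest pair, LD of CN at T12 and SS of CN, also overlapped.

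Slow-fibre and fast-fibre genes were read beside VEGFA in both comparisons. All 8 tested slow-fibre contractile genes were lower in LD of CN lambs at T12, with 2 called: the slow troponin T gene TNNT1 (-0.97, limma adjusted p = 0.0368) and MYH7, the myosin heavy chain of slow fibres (-0.89, limma adjusted p = 0.0491). The summed slow-fibre signal was 73103.7 to 78587.8 in LD of CN lambs at T12, against 104866.1 to 142857 in LD of the other genotypes. In SS of NN lambs, where VEGFA was also low, all 8 slow-fibre genes were higher than in LD, with TNNT1 (0.68, limma adjusted p = 0.0246) and MYOZ2, a Z-disc protein of slow fibres (1.32, limma adjusted p = 0.00655), called. The summed slow-fibre signal was 190558.2 to 199657.6 in SS of NN lambs, and the 189220.4 to 210507.3 in SS of CN lambs overlapped with it. At T0, where no VEGFA difference was called, the sum in LD was 93101.6 to 105005.5 in CN. It was 110223.7 to 132869.8 in the other genotypes at T0. Of the 7 tested fast-fibre genes, 3 were lower and 4 higher in LD of CN lambs at T12, with none called and a median of 0.02. The smallest p there was that of ACTN3, the actinin of fast fibres (0.44, limma adjusted p = 0.323). In SS of NN lambs all 7 were lower than in LD, with ACTN3 (-1.28, limma adjusted p = 0.00122) and the fast troponin genes TNNT3 (-0.58, limma adjusted p = 0.0246) and TNNI2 (-0.49, limma adjusted p = 0.0483) called. The part of fibre type in the VEGFA difference was not tested.

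The VEGF and angiopoietin pathway was read from a list of 26 genes, of which 20 were tested. VEGFA and TIE1 are themselves on this list. In LD of CN lambs at T12, 17 were lower and 3 higher, with a median difference of -0.38 against -0.06 over all tested probe sets, and VEGFA was the single call. VEGFB, a second ligand of the family, had group values of 861.7 in CN, against 1196.2 in CC, 1301.5 in NC and 1589.9 in NN (-0.65 ± 0.19, limma adjusted p = 0.237). At T0 12 of the 20 were lower and 8 higher, with none called and a median of -0.20. The smallest p there belonged to ANGPT1, the ligand that activates the receptor TEK, at -1.16 ± 0.34 (limma adjusted p = 0.175). In SS of CN lambs 12 were lower and 8 higher, none called, with a median of -0.10. The receptor gene KDR gave no tested probe set.

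Genes that regulate VEGFA or share its response to low oxygen showed no common direction in LD of CN lambs at T12. Of 13 tested, 7 were lower and 6 higher, with a median of -0.00 and none called. EGLN3, an oxygen sensor that marks HIF proteins for breakdown and is itself induced by low oxygen, had the smallest p. Its group value was 98.3 in CN, against 242.7 in CC, 228.6 in NC and 331.9 in NN (-1.43 ± 0.26, limma adjusted p = 0.0632). At T0 5 of the 13 were lower and 8 higher, with none called.

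In SS of NN lambs against LD, the calls in the pathway list were VEGFA and FGF2, another growth factor for endothelium, which was higher in SS at 565.8, against 276.6 in CC, 258.0 in NC and 246.2 in NN (1.12 ± 0.23, limma adjusted p = 0.0243). Over that list 14 genes were lower and 6 higher in SS. Among the regulators only LDHA, the lactate dehydrogenase subunit of glycolytic muscle, was called (-1.18, limma adjusted p = 6.11e-04).

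CDH5 was low in every CN group by its brighter probe set, and no CN comparison of it was called. In LD at T12 it read 326.6 and 326.1 in CN, against 501.4 and 359.0 in CC, 564.5 and 486.8 in NC, and 607.4 and 568.9 in NN. At T0 the values were 275.8 and 279.9 in CN, against 504.6 and 533.2 in CC, 487.8 and 522.2 in NC, and 642.0 and 538.7 in NN. In SS at T12 it read 273.6 and 228.7 in CN, against 373.8 and 408.2 in NN. In each of the 3 settings every CN array was below every array of the other genotypes. By group values, CN lay below all other genotypes sampled in each setting for 1134 of the 15654 tested probe sets, or 7.24%. The fitted differences were -0.64 ± 0.21 in LD at T12 (limma adjusted p = 0.306), -0.95 ± 0.21 in LD at T0 (limma adjusted p = 0.0891) and -0.64 ± 0.26 in SS (unadjusted p = 0.0317, limma adjusted p = 1.0). At T0 0.172% of all tested probe sets were called, and none of the 8 was. An unadjusted p under 0.05 was found for 3 of the 8, all lower in CN (brighter CDH5, VWF and TIE1), while the share over all tested probe sets was 11.7%. As at T12, the genes were chosen with earlier results known, which limits this contrast.

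The 3 CN groups were the lowest 3 of all 12 for this probe set, at 326.3 in LD at T12, 277.8 in LD at T0 and 250.1 in SS. The same held for 111 tested probe sets, or 0.709%, a count made after the values were seen. The highest group was LD of NN at T0 (588.1), followed closely by LD of NN at T12 (587.8) and SM (579.9). Down to the SS group of NN lambs (390.6) each neighbour in the order overlapped with the next, and the 3 gaps lay below it. The CN difference did not change detectably between ages (0.31 ± 0.30, limma adjusted p = 0.842, 95% interval -0.35 to 0.98) or between SS and LD (-0.01 ± 0.34, 95% interval -0.75 to 0.74). In the test of SS minus LD no probe set (0%) was called, and 4.96% had an unadjusted p under 0.05.

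The dimmer CDH5 probe set did not show the pattern. In LD at T12 it read 198.0 and 123.6 in CN, within the range of 103.1 to 269.7 over the other genotypes. At T0 it read 156.5 and 129.6 in CN, within 66.2 to 212.2. Its differences were -0.18 ± 0.36 at T12, 0.03 ± 0.36 at T0 and -0.26 ± 0.45 in SS, each with a limma adjusted p above 0.9. Across the 12 groups the 2 CDH5 probe sets correlated at r = 0.30, and no neighbouring groups in the order of the dimmer one were free of overlap.

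VWF and TIE1 had their lowest group values of all 12 in LD of CN lambs at T0, where neither difference was called. The CN difference at T12 minus that at T0 was 0.62 ± 0.37 for VWF (limma adjusted p = 0.704) and 2.10 ± 0.81 for TIE1 (limma adjusted p = 0.49), so the ages were not shown to differ. VWF read 81.2 and 70.8 in CN at T0, against 158.3 and 151.0 in CC, 161.7 and 106.2 in NC, and 141.7 and 91.3 in NN. Both CN arrays were the lowest of the 8, an order of group values that 31.1% of all tested probe sets showed at T0. The difference was -0.80 ± 0.26 (unadjusted p = 0.0111, limma adjusted p = 0.237). At T12 it read 157.6 and 143.5 in CN, against 181.6 and 140.7 in CC, 171.3 and 165.2 in NC, and 227.2 and 152.2 in NN. There the groups overlapped (-0.19 ± 0.26, 95% interval -0.76 to 0.39). In SS it read 156.4 and 121.4 in CN and 159.9 and 138.9 in NN. The groups overlapped (-0.11 ± 0.32), and without SS CN T12 replicate 2 the difference was 0.070. Array 1 was above array 2 for VWF in all 12 groups, and for dimmer VEGFA and dimmer CDH5 in 10 of 12 each. For these probe sets part of the spread within a group therefore goes with the array number. How many of all tested probe sets lean this way was not counted. Brighter VEGFA and TIE1 leaned the other way, with array 1 above array 2 in 3 of 12 groups each. The highest group for VWF was SM, with 281.5 and 175.3. A second VWF probe set read 1.8 to 35.0, below the median of each array, and was not tested.

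TIE1 was dim throughout, with 7 of 24 arrays below their own median. It read 12.4 and 25.9 in LD of CN lambs at T0, against 66.3 and 75.3 in CC, 69.8 and 78.0 in NC, and 44.3 and 59.6 in NN. The CN arrays were below the 6 others, an order of group values that 31.1% of all tested probe sets showed at T0. The CN arrays were also below the lowest array median of 47.4, so the size of the difference is uncertain (-1.85 ± 0.57, unadjusted p = 0.00823, limma adjusted p = 0.211). At T12 CN read 55.1 and 52.1, inside the spread of 73.6 and 37.7 in CC, 15.8 and 36.4 in NC, and 79.1 and 65.9 in NN (0.25 ± 0.57, limma adjusted p = 0.946). In SS TIE1 read 62.7 and 65.3 in CN, below 83.5 and 90.8 in NN (-0.44 ± 0.70, limma adjusted p = 1.0). A CN group value below that of NN in SS was seen for 50.1% of all tested probe sets. TIE1 had its highest group value in SM (96.9), and its low values at T0 came from arrays whose median signal was 48.1 and 47.4, against 50.1 to 52.9 in the other T0 arrays of LD. The part of overall brightness in the TIE1 and VWF values was not tested.

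**Figure D2:**
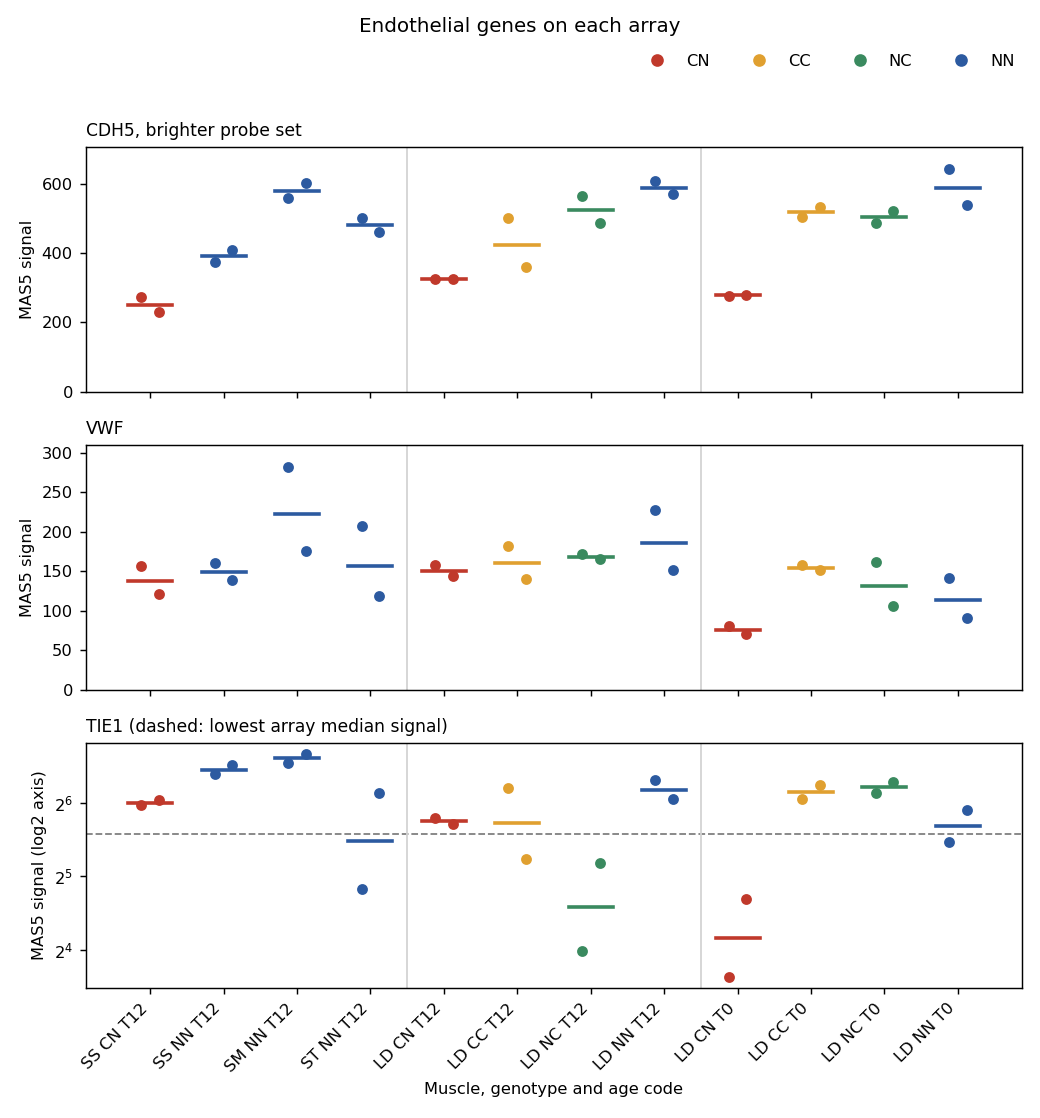
Signals of CDH5 (brighter probe set), VWF and TIE1 on each array. Points are arrays, short lines group values and colours genotypes. The CDH5 and VWF axes are linear from 0, and the TIE1 axis is log2 with a dashed line at the lowest array median, 47.4. By group values CN lies lowest within each setting for CDH5 and VWF, and for TIE1 in LD at T0 and in SS. For VWF the arrays of CN overlap with those of other genotypes in LD at T12 and in SS.

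A wider list of endothelial genes was read beside these members. The list includes CDH5, TIE1 and VWF, so its counts, medians and sums are not independent of them. Of 32 genes 25 were on the array and 22 were tested. In LD of CN lambs at T12, 19 were lower and 3 higher, with a median of -0.29 against -0.06 over all tested probe sets, of which 55.6% were lower. None was called. At an unadjusted p under 0.05 there were 4 of the 22, all lower, against 9.98% of all tested probe sets in either direction. CDH5 itself was among the 4. The list was also chosen with earlier results of these data known. PLVAP, the diaphragm protein of fenestrated endothelium, gave -1.88 ± 0.59 (limma adjusted p = 0.273), with a group value of 10.9 in CN, under the array medians. CD36, a fatty acid transporter of capillaries that muscle fibres also make, gave -0.73 ± 0.21 (limma adjusted p = 0.236). PECAM1, ROBO4 and ENG, further surface proteins of endothelium, lay between -0.03 and -0.00. At T0 17 were lower and 5 higher, with a median of -0.20 and none called, and in SS 16 were lower and 6 higher, with a median of -0.10.

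The summed signal of the 22 endothelial genes was 11056.0 to 11168.5 in LD of CN lambs at T12. It was 11578.7 to 12513.9 in CC, 14094 to 14919.7 in NC and 15430.5 to 16144.5 in NN, so CC lay close to CN and far from NN. At T0 it was 10294.9 to 10531.4 in CN, against 11710 to 12776.2 in the other genotypes. In SS the sum was 12939.7 to 13462.2 in CN and 16061.7 to 17631.3 in NN. CAV1, the coat protein of caveolae, and CD36 were the brightest members and weigh heavily in these sums. In SS of NN lambs CD36 was higher than in LD (1.51 ± 0.21, limma adjusted p = 0.00323), while 15 of the 22 genes were lower there.

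**Figure D3:**
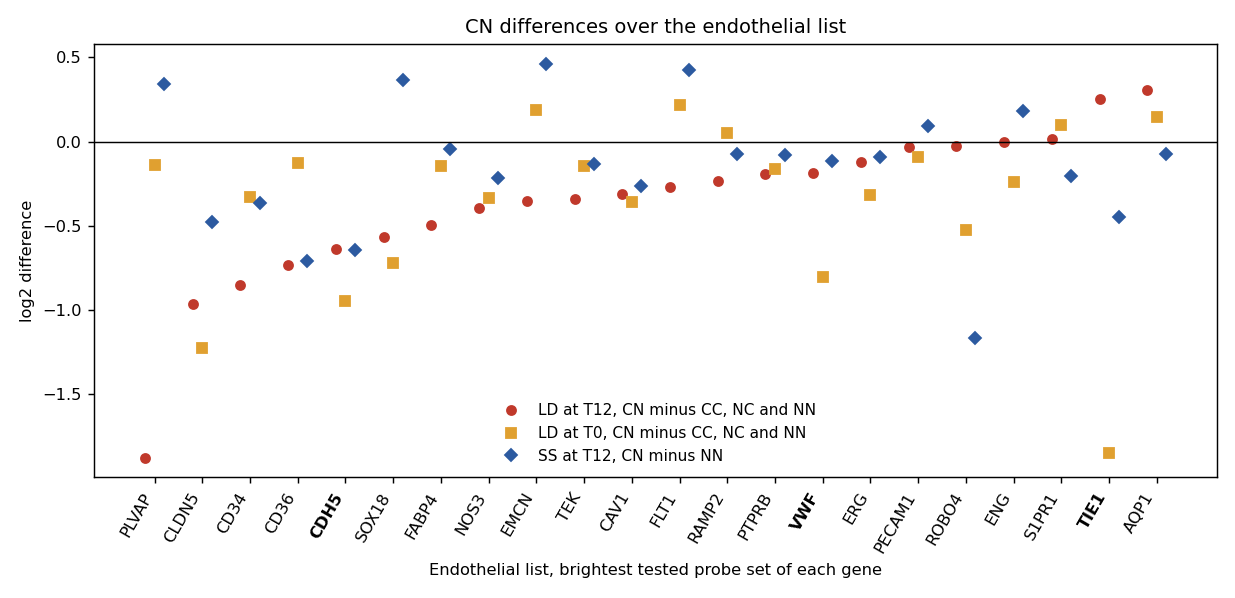
Log2 differences of CN lambs from the other genotypes for the 22 tested endothelial genes, in order of the difference in LD at T12 (circles), with LD at T0 (squares) and SS at T12 (diamonds). CDH5, VWF and TIE1 are in bold. In LD at T12, 19 of 22 points lie under 0, and TIE1 moves most between ages.

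LYVE1 was called lower in LD of CN lambs at T12 by its dimmer probe set, and the size of that difference hangs on 1 array. The dimmer probe set read 6.0 and 37.6 in CN, against 66.5 and 70.6 in CC, 81.3 and 86.9 in NC, and 55.4 and 75.6 in NN. Both CN arrays were below the 6 others, an order of group values that 33.6% of all tested probe sets showed. The CN arrays were also below the lowest array median and differed from each other by 2.65 on the log2 scale. The fitted difference was -2.26 ± 0.36 (limma adjusted p = 0.0491). Without LD CN T12 replicate 1, the array at 6.0, it was -0.94 (adjusted p = 0.248), and without replicate 2 it was -3.58. The call was kept in 7 of the 24 fits that left out 1 array, namely those without LD CN T0 replicate 1 or 2, LD CN T12 replicate 2, SS CN T12 replicate 1, SM replicate 2, SS NN T12 replicate 2 or ST replicate 2.

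The brighter LYVE1 probe set read 47.3 and 120.1 in LD of CN lambs at T12. It read 104.2 and 87.2 in CC, 84.1 and 132.4 in NC, and 82.6 and 167.6 in NN. The same CN array was the lowest of the 8, and the other lay among the remaining arrays (-0.49 ± 0.29, limma adjusted p = 0.659). At T0 it ran the other way, with 176.5 and 163.1 in CN above 144.0 and 151.9 in CC, 92.4 and 146.2 in NC, and 93.6 and 106.6 in NN (0.50 ± 0.29, limma adjusted p = 0.581). This was not called, and the CN group value was above those of the other genotypes at T0 for 25.6% of all tested probe sets. The dimmer probe set at T0 read 74.5 and 65.8 in CN, inside the range of 52.1 to 101.7 over the other genotypes (0.05 ± 0.36, limma adjusted p = 0.979).

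LYVE1 in SS was lower in CN by both probe sets without a call. The dimmer one read 120.2 and 92.2 in CN, against 159.5 and 118.5 in NN, where a CN array lay just above the lower NN array. The brighter one read 132.5 and 105.9 in CN, against 175.2 and 162.0 in NN, with no overlap (-0.51 ± 0.36, limma adjusted p = 1.0). In SS 50.1% of all tested probe sets had a CN group value below that of NN. Between muscles the 2 LYVE1 probe sets did not rank alike. SS of NN lambs was the highest of all 12 groups for the dimmer probe set (137.5), and SM was the highest for the brighter one (178.3). SS against LD gave 0.93 ± 0.36 for the dimmer and 0.67 ± 0.29 for the brighter probe set (limma adjusted p = 0.23 and 0.295).

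**Figure D4:**
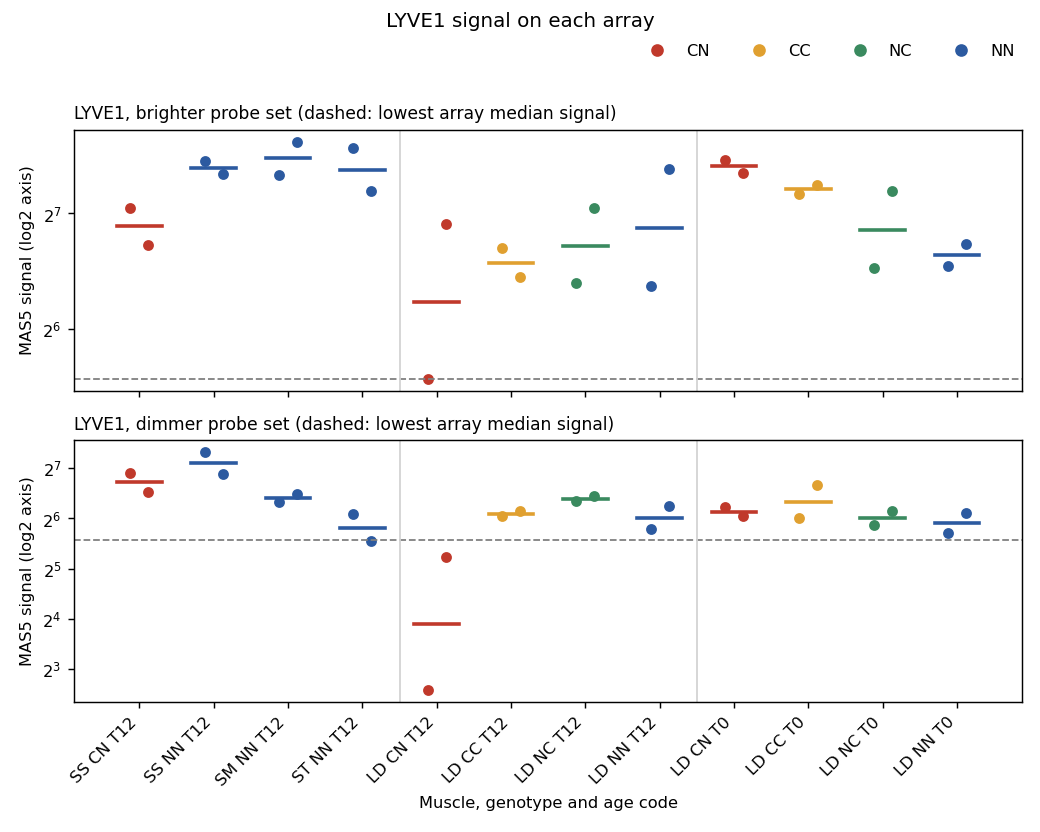
LYVE1 signal on each array for the brighter probe set (top) and the dimmer one (bottom), on log2 axes. Points are arrays, short lines group values, colours genotypes, and the dashed line is the lowest array median, 47.4. The array at 6.0 in LD of CN lambs at T12 stands alone at the foot of the lower panel.

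Other lymphatic genes were few and dim. Of a list of 12, 6 were tested: LYVE1, NRP2, CCL21, MMRN1, PDPN and STAB1. The defining transcription factor PROX1 and the receptor FLT4 gave no tested probe set. In LD of CN lambs at T12 all 6 were lower, with a median of -0.43 and none called. NRP2, a co-receptor for lymphatic growth factors, gave -0.95 ± 0.34 (limma adjusted p = 0.344). At T0 3 were lower and 3 higher, and in SS 5 were lower and 1 higher. The summed lymphatic signal was 503.7 to 565.2 in LD of CN lambs at T12, against 651.1 to 721.9 in the other genotypes.

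Markers of several other cell types were read in LD of CN lambs at T12, where 55.6% of all tested probe sets were lower. Of 11 tested macrophage genes 10 were lower, with a summed signal of 789.2 to 826.1 in CN, against 953.2 to 1279.3 in the other genotypes. CSF1R, the macrophage growth factor receptor, gave -2.13 ± 0.66 (limma adjusted p = 0.271). Of 10 fibroblast and matrix genes 9 were lower, with a median of -0.59 and a summed signal of 29337.9 to 33800.6 in CN, against 39655.1 to 54410.7 in the other genotypes. Of 12 pericyte and smooth muscle genes 11 were lower, with a median of -0.26, and of 8 skeletal muscle identity genes 7 were lower, with a median of -0.12. All 5 fat cell genes were lower, with a median of -0.59. Of 5 platelet and red cell genes 2 were lower and 3 higher, with a median of 0.07. None of the genes of these 6 lists was called.

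Probe sets for RNA quality gave unequal pictures. The log2 ratio of the 3' to the 5' GAPDH probe set was -0.0332 and 0.0849 in LD of CN lambs at T12, 0.0433 and 0.0663 in CC, and 0.187 to 0.246 in NC and NN. The same ratio for actin overlapped between genotypes: it was 0.0473 and 0.0360 in CN, 0.0933 and 0.115 in CC, 0.294 and 0.0314 in NC, and 0.203 and 0.0371 in NN. Median signal was 49.65 and 51.6 in LD of CN lambs at T12, against 53.6 to 58.0 in LD of the other genotypes at T12. The part of other cell types, of RNA quality and of overall brightness in the results for the 5 genes was not tested.

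**Figure D5:**
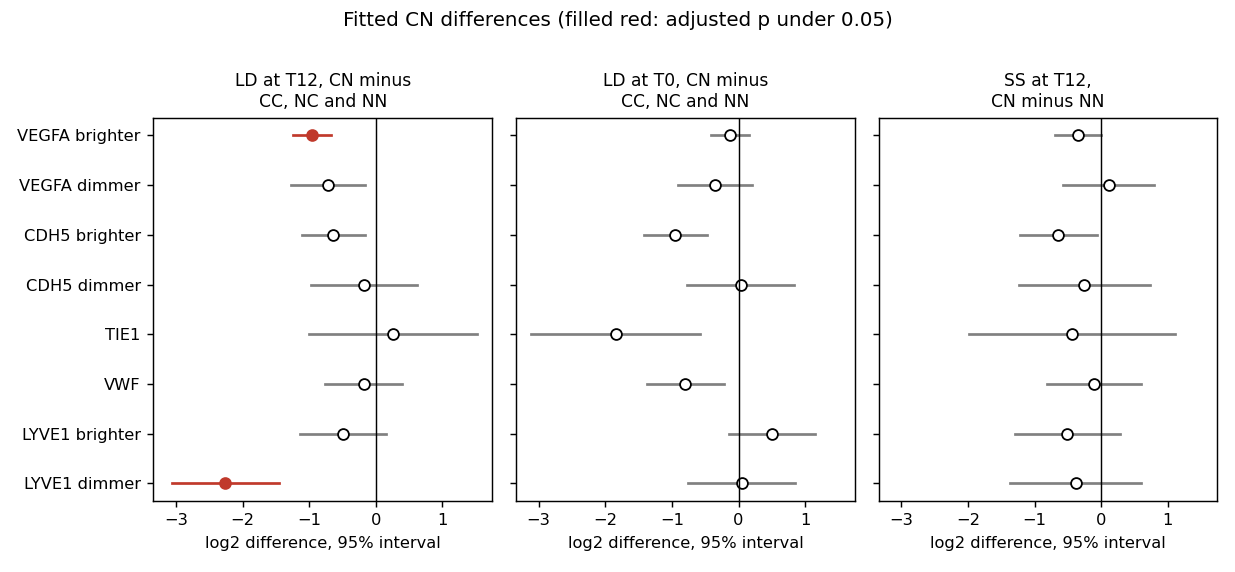
Fitted log2 differences of CN lambs from the other genotypes with 95% intervals for the 8 tested probe sets, in LD at T12 (left), LD at T0 (middle) and SS at T12 (right). Filled red points have an adjusted p under 0.05. Both called points, VEGFA at -0.96 and LYVE1 at -2.26, are in the left panel.

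No difference with age was called for these genes. Between T12 and T0 in LD of CC, NC and NN lambs none of the 8 probe sets was called, while 11.7% of all tested probe sets were. The differences ran from -0.52 for TIE1 to 0.37 for VWF, and the brighter VEGFA probe set gave 0.11 ± 0.09 (limma adjusted p = 0.5). Of 22 endothelial genes 12 were higher and 10 lower at T12, with a median of 0.08 against 0.06 over all tested probe sets. The 3 called, a share near that of all tested probe sets, all rose: the VEGF receptor gene FLT1 (0.89 ± 0.16, limma adjusted p = 0.00613), the capillary sialomucin EMCN (0.56 ± 0.14, limma adjusted p = 0.0235) and the sphingosine receptor S1PR1 (0.68 ± 0.18, limma adjusted p = 0.0311). In the pathway list 15 of 20 genes were higher and 5 lower, with 4 called. Beside FLT1 these were the ligands VEGFB (0.56 ± 0.13, limma adjusted p = 0.0195) and VEGFD (0.72 ± 0.19, limma adjusted p = 0.0338) and the lipase inhibitor ANGPTL4 (1.12 ± 0.19, limma adjusted p = 0.00444), which rose. Of 13 regulators 7 were called, 2 lower and 5 higher. HIF1A, the oxygen-responsive transcription factor that acts on VEGFA, fell by 0.80 (limma adjusted p = 0.00251), while its relative EPAS1 rose by 0.75 (limma adjusted p = 0.00879). The oxygen sensors EGLN1 (0.49, limma adjusted p = 0.00874) and EGLN3 (0.82, limma adjusted p = 0.0145) rose, as did NDRG1 (1.01, limma adjusted p = 0.00328) and BNIP3 (1.21, limma adjusted p = 0.0347), which are induced by low oxygen.

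CC and NC were set against NN over both ages of LD. The 8 differences ran from -0.33 to 0.26 for CC and from -0.53 to 0.24 for NC. None was called or had an unadjusted p under 0.05, while 0.0128% of tested probe sets were called in each of these comparisons.

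The patterns of the 5 genes over the 12 group values were described by Pearson's r, over groups that share lambs of a genotype and array brightness. Brighter VEGFA and brighter CDH5 correlated at 0.68, TIE1 and VWF at 0.61, the 2 VEGFA probe sets at 0.73 and the 2 LYVE1 probe sets at 0.62. Brighter VEGFA with VWF gave -0.02 and with TIE1 -0.28. Among 2138 probe sets with 1 symbol, enough signal and a range of at least 1 on the log2 scale, those most like VEGFA were WSB1 (0.91), RPS27L (0.86) and CCDC8 (0.81). Those most like CDH5 were IDH3G (0.89), CHCHD10 (0.88) and NDUFA7 (0.88). VWF was most like COX8B (0.93), BTNL9 (0.92) and MFSD13A (0.91), TIE1 most like PTCD2 (0.87), ATXN10 (0.85) and CRIP2 (0.76), and brighter LYVE1 most like GPAT4 (0.84), NRAS (0.83) and MAOA (0.82).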

How the data were processed

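The authors deposited 1 linear intensity for each probe set and array. They used MAS5, per the submitters' processing notes, with a version not given in the sources used here. RNA was extracted with Trizol and 5 µg was labelled, per the labels' protocols. The trimmed mean signal was 200.080 to 200.093 on every array. Signals at or below 1 (5477 of 579072) were set to 1 before log2, and the 2 technical arrays of a group were averaged. No depth applies to arrays, and their number limits the precision. Array sequences were not used here, so no sequence or coordinate is given.

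The two-sided tests came from limma (3.58.1, run in R 4.3.3, with moderated variances that follow intensity). They used 12 group values in 8 cells, and at each age LD of CC, NC and NN made up 1 cell of 3 values. This left 4 residual degrees of freedom (prior 6.89), and cells of 1 value borrow the spread seen among those genotypes. SS, SM and ST of NN lambs were set against the LD cell at T12. CC and NC were set against NN in the 8 groups of LD, adjusting for age (3 residual degrees of freedom, prior 7.13). The 112 control probe sets were left out, and 15654 probe sets whose log2 signal was above the overall median of 5.64 in at least 1 group were tested. Names come from the platform annotation of 2016: 13318 probe sets had 1 symbol, 86 several and 10724 none. All 5 symbols occur in the sheep RefSeq gene table. The fit was tested on simulated data, with differences planted in bright probe sets for CN in LD at T12. Of 100 planted differences of 1 on the log2 scale 59 were called, and of 100 of size 2 it was 93. There were 8 false calls. A difference of 1 or less that was not called is therefore not shown to be absent. Among the tested probe sets of the 5 genes, only brighter VEGFA and brighter CDH5 were as bright as those planted. For the others no recovery was measured. A larger uncalled difference in them, such as that of TIE1 in LD at T0, is also not shown to be absent.

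The members, gene lists and naming rules were chosen with earlier results of these data known. Lists are described on the brightest tested probe set of each symbol, with no test of a list: from each, members that were called (up to 6) or the 2 of smallest p were named, and a few further members were named after their values were seen. Alternatives covered quantile scaling, a floor of 16, an offset of 32, no filter, no intensity trend, averaging the probe sets of a symbol, other comparators, the 24 arrays as separate values, and leaving out each array.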

Additional observations from a re-analysis of the deposited data

Results flagged for a closer look

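These 6 results stood out because the CN difference was unequal between ages or between muscles at an unadjusted p under 0.05. None passed after adjustment over all tested probe sets, where 8.89% (ages) and 4.96% (muscles) had such a p. For T12 minus T0 in LD, the brighter VEGFA probe set gave -0.83 ± 0.18 (unadjusted p = 7.69e-04), the dimmer LYVE1 probe set -2.31 ± 0.51 (unadjusted p = 9.24e-04), the brighter LYVE1 probe set -0.99 ± 0.41 (unadjusted p = 0.0359) and TIE1 2.10 ± 0.81 (unadjusted p = 0.0254), each by limma with an adjusted p of 0.236 to 0.518. Without LD CN T12 replicate 2 the dimmer LYVE1 value passed (adjusted p = 0.0467), and without replicate 1 it was -0.98. For SS minus LD at T12, the brighter VEGFA probe set gave 0.61 ± 0.20 (limma adjusted p = 0.775) and the dimmer LYVE1 probe set 1.88 ± 0.57 (limma adjusted p = 0.73). Both comparisons share the LD arrays at T12.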

How the results depend on the processing

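Of 400 values for the 8 probe sets under the other settings 372 kept direction and side of the threshold. Of 1224 values from the fits without 1 array 1189 did. Most of the 51 results behind these values were uncalled, and for them keeping the side of the threshold means staying uncalled. The called results were less stable. The brighter VEGFA call in LD at T12 was lost with no intensity trend (adjusted p = 0.168), with probe sets of a symbol averaged (-0.84, 0.077) and with NN alone (0.262). Its call in SS against LD was lost with no trend (0.206) and LD of NN alone (0.125), and was kept without any 1 array. The dimmer LYVE1 call was lost in 8 settings, among them an offset of 32 (-1.02) and a floor of 16 (-1.55), and in 17 of 24 fits without 1 array (-3.58 to -0.94). Directions turned for CDH5 between ages with probe sets averaged (0.13), for dimmer CDH5 in LD at T0 averaged (-0.46) or against NN alone (-0.21), for dimmer LYVE1 between ages with quantile scaling (-0.013) or averaging (-0.047), for TIE1 in LD at T12 against NN alone (-0.43) and for dimmer VEGFA in SS averaged (-0.12). Without 1 array, sign changes occurred for dimmer CDH5 in LD at T12 (-0.52 to 0.16) and T0 (-0.11 to 0.18), brighter LYVE1 in LD at T12 (-1.16 to 0.18), dimmer LYVE1 in LD at T0 (-0.065 to 0.16) and between ages (-0.025 to 0.20), brighter CDH5 between ages (-0.16 to 0.0017), and VWF (-0.30 to 0.070) and dimmer VEGFA (-0.045 to 0.27) in SS. The cause of these shifts was not tested.

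Nothing in the labels ties equal array numbers together, so the numbers were not taken as pairs. Over 66 pairs of groups the differences between array 1 and array 2 correlated at -0.41 to 0.54 (median 0.09), with 33 over 0.1. A shared effect of array number is therefore not shown to be absent. The replicate block fit took the 24 arrays as separate values, whose spread is partly technical (group correlation 0.0375). It added calls for brighter CDH5 in LD at T12 (adjusted p = 0.045) and T0 (0.00103), TIE1 (0.0367) and VWF (0.039) in LD at T0, VEGFA for the difference between ages (0.00274) and SS against SM and ST (0.0434), and dimmer VEGFA in SS against LD (0.0333, also 0.0314 with probe sets averaged). Counts of called probe sets under the replicate block were 246 for CN in LD at T12, 560 at T0, 2848 between ages, 146 for the difference between ages, 3 for CN in SS, 511 for SS against SM and ST, 1135 for SS against LD, 88 for SM and ST against LD, 44 for CC and 7 for NC against NN.

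For CN in LD at T12 the count of 28 became 11 with quantile scaling, 18 with the offset, 11 with no filter, 0 with no trend, 11 with probe sets averaged, 1 with NN alone, and 1 to 421 without 1 array. At T0 the count of 27 became 7 with quantile scaling, 67 with the floor, 90 with the offset, 0 with no trend, 5 averaged, 199 with NC and NN as comparator, and 3 to 271 without 1 array. Between ages 1830 became 225 with no trend and 1220 to 1907 without 1 array. The difference between ages had 2 calls with the offset and 0 to 44 without 1 array. CN in SS had 0 to 12 without 1 array, and SS minus LD 0 to 4. SS against SM and ST had 156, 4 with no trend and 88 to 278 without 1 array. SS against LD had 463, 86 with no trend, 129 with LD of NN alone and 280 to 754 without 1 array. SM and ST against LD had 7, 0 with no trend, 2 with LD of NN alone and 4 to 23 without 1 array. CC against NN had 2, 4 with the offset or no filter, 0 with no trend or averaging and 2 to 4 without 1 array. NC against NN had 2, and 0 with no trend or averaging. TIE1 and LYVE1 lie near the array medians, where signal over background limits them.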

Other observations

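Blood cell and fat cell genes were read beside the vessel genes. In LD of CC, NC and NN lambs the globin genes HBG (-1.76 ± 0.22, limma adjusted p = 0.00102) and HBB (-2.26 ± 0.58, limma adjusted p = 0.0295) were lower at T12 than at T0. Globin copies are near-identical, so their probe sets may share transcripts. In LD of CN lambs at T0 the 5 platelet and red cell genes were all lower than in the other genotypes, with none called and a median of -0.68. Their summed signal was 368.3 to 394.3 in CN, against 465.5 to 710.0 in the other genotypes.

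SS of NN lambs had more signal than LD for the fat cell genes LPL, the lipase bound to capillary walls (2.80 ± 0.23, limma adjusted p = 1.42e-04), and ADIPOQ (1.71 ± 0.37, limma adjusted p = 0.0354). Between T12 and T0 in LD the contractile genes TAGLN (0.65 ± 0.15, limma adjusted p = 0.0191), MYH11 (0.98 ± 0.23, limma adjusted p = 0.0199) and ACTA2 (0.46 ± 0.11, limma adjusted p = 0.0206) of vessel wall muscle rose, and the pericyte channel gene KCNJ8 fell by 0.49 (limma adjusted p = 0.038).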
